A study of Mus musculus with 3 samples.

Results

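The core genes of the Hippo pathway, a signalling route that restrains growth and tissue size, were described in 4T1 cells that over-express WISP2. The 10 genes were chosen by symbol and all were found among the 34591 symbols of the count table. They are the coactivators Yap1 and Wwtr1 (which encodes TAZ), the DNA-binding factors Tead1, Tead2, Tead3 and Tead4, the kinases Lats1 and Lats2, the scaffold Sav1 and the upstream scaffold Nf2. 4T1 is an established mouse mammary carcinoma line, and WISP2 is a matricellular protein that cells secrete. It belongs to the CCN family, whose relatives Ctgf and Cyr61 are themselves known targets of YAP and TAZ. The study measured messenger RNA in 3 libraries of 1 group, all labelled as WISP2 over-expressing 4T1 cells. The labels' protocol describes transduction with a packaged viral vector followed by puromycin selection, and it names constructs of Wisp1, not the WISP2 construct. The empty-vector controls named in the design text were not analysed here, so the values describe these cells as they are and measure no effect of WISP2. The labels do not state whether separate cultures were used, so the spread between the libraries, and any p-value built on it, may be technical.

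In the Hippo pathway, the MST kinases, bound to the scaffold SAV1, activate the kinases LATS1 and LATS2, and the membrane-linked protein NF2 (Merlin) helps to bring LATS to its activators. Active LATS phosphorylates YAP and TAZ, which are then held in the cytoplasm or degraded. When LATS is inactive, YAP and TAZ enter the nucleus, bind TEAD factors and switch on growth and matrix genes. In mammary carcinoma cells YAP and TAZ are known for responding to matrix stiffness and for supporting invasive growth. This control acts largely on the proteins, and RNA levels do not measure it.

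TEAD factors bind a DNA core read as GGAATG on one strand and CATTCC on the other. The core was searched on both strands in the RefSeq promoter windows of build GRCm38.p6, each of 300 bases, with 250 bases before and 50 after a transcription start. The windows covered 8 of the 10 core genes. The hexamer was present in windows of 5 of these 8 genes, namely Yap1, Wwtr1, Tead3, Lats2 and Sav1. It was in none of those of Lats1, Nf2 and Tead2. The transcribed end of the Tead2 window was not found in the transcripts that GENCODE M21 gives for Tead2. Of all 32851 windows 14.7% held it, and 16.6% of the 27025 genes had such a window; Tead3 had 3 windows, and Wwtr1, Lats2 and Nf2 had 2 each. Of 14 known target genes of YAP and TAZ with a window, Lats2 not counted, 6 had the hexamer, Cyr61 among them. The stretches of 60 bases below show the TEAD core before annotated starts of core pathway genes, with that of Cyr61 for comparison. They run 5′ to 3′ on the strand of the gene, and capitals mark the hexamer.
Yap1: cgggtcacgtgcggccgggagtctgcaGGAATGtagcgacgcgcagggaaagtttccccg
Wwtr1: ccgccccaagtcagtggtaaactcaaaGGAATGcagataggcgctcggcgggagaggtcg
Sav1: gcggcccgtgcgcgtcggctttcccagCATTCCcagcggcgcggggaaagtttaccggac
Tead3: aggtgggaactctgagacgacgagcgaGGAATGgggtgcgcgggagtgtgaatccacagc
Cyr61: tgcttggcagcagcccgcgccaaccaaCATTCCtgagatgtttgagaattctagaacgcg

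These stretches lie, all on the minus strand of GRCm38.p6, at chr9:8004705-8004764 (Yap1), chr3:57576014-57576073 (Wwtr1), chr12:69987076-69987135 (Sav1), chr17:28350955-28351014 (Tead3) and chr3:145650056-145650115 (Cyr61). The first base of the hexamer was 141 bases before the start of Yap1, 106 bases before that of Sav1, 182 bases before the outermost start of Tead3 and 103 bases before that of Cyr61. In Wwtr1 the same hexamer lay 136 and 170 bases before its 2 annotated starts. In Lats2 the match began at base 5 of the transcribed part. Another Tead3 window held 3 further matches, beginning 114 and 123 bases before its start and at base 3 of its transcribed part. A match describes the letters in these windows and is not evidence of binding.

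The libraries, called C1, C2 and C3 after the table's column names, held 17630755, 67028365 and 47577315 counts, so 1 count was worth 0.0567, 0.0149 and 0.0210 CPM (counts per 1000000 gene-assigned counts of the library). All 4 mammary epithelial markers checked (Krt8, Krt18, Epcam and Cdh1) reached 1 CPM in every library, with a summed level of 2510 to 2762 CPM. None of 4 fibroblast markers (sum 0.510 to 0.946 CPM, Thy1 at 0 counts), 2 general leukocyte markers (0.0567 to 0.273 CPM, Cd3e at 0) or 2 endothelial markers (0.0567 to 0.189 CPM) did so. Of 4 macrophage markers 2 reached it, and their sum was 18.2, 9.25 and 9.29 CPM in C1, C2 and C3. In bulk RNA, fewer cells of a type and less RNA per cell cannot be told apart. The part of macrophage RNA in the results was not tested.

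All 10 core genes were expressed. Each exceeded 1 CPM in every library, a level that 33.8% of the symbols in the table reached, and each also exceeded 10 CPM. Their median level was 117 CPM, compared with 35.9 CPM over the 11700 symbols at 1 CPM or more. CPM favours long transcripts, so ratios and orders of the core genes were taken per kilobase of exon, and medians and percentiles over many genes are given on both scales or named as uncorrected. Per kilobase of exon union the median was 15.7 CPM per kilobase for the core genes and 8.32 for the genes at 1 CPM or more. The coactivators and Nf2 were at the upper end, and Tead3 was the lowest.

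**Figure D1:**
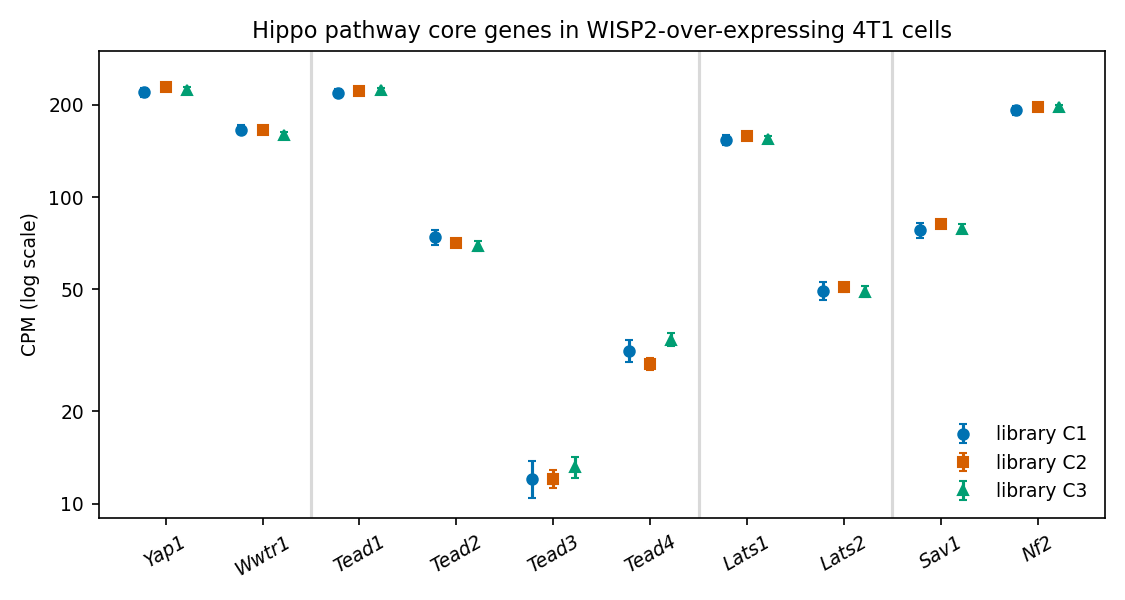
Level of each core gene in CPM (log axis) in the libraries C1, C2 and C3. Bars are exact 95% binomial intervals of single libraries. All 10 genes lie between 12.0 and 228 CPM. The libraries lie close together except for Tead4, whose intervals in C2 (27.2 to 29.8 CPM) and C3 (32.7 to 36.0 CPM) do not overlap.

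Both coactivators were well expressed. Yap1, the main transcriptional effector of the pathway, stood at 219, 228 and 223 CPM in C1, C2 and C3, with 95% counting intervals of 213 to 226, 224 to 232 and 219 to 228 CPM, and a mean of 224 ± 4.28 CPM (SD, n = 3). Its mean was above that of 78.4% of the genes at 1 CPM or more per kilobase of exon union, and above 92.4% in uncorrected CPM. Wwtr1, whose product TAZ is the paralog of YAP, stood at 166, 166 and 159 CPM in C1, C2 and C3, a mean of 164 ± 3.87 CPM, above 84.9% of those genes per kilobase of exon union and 88.3% in uncorrected CPM. C3 was the lowest library for Wwtr1, whereas Yap1 was lowest in C1. Neither exceeded counting noise in the main Poisson dispersion test described below (adjusted p = 0.0815 for Wwtr1 and 0.165 for Yap1).

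Which coactivator transcript was more abundant depended on the length assigned to Yap1. The union of its annotated exons in GENCODE M21 is 9257 bases, but its longest single transcript is 5282 bases; for Wwtr1 these lengths are 4779 and 4697 bases. With the exon union, Yap1 had 24.2 ± 0.463 and Wwtr1 34.2 ± 0.810 CPM per kilobase, a ratio of Yap1 to Wwtr1 of 0.706 (log2 -0.50 ± 0.04), below 1 in 3 of 3 libraries. With the longest transcript, Yap1 had 42.3 ± 0.811 and Wwtr1 34.8 ± 0.824 CPM per kilobase, and the log2 ratio was 0.28. Uncorrected counts gave a log2 ratio of 0.45. The direction therefore reversed with the length used, and no order of Yap1 and Wwtr1 can be given. The isoforms expressed in these cells are not resolved by gene-level counts.

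The TEAD factors, which carry YAP and TAZ to DNA, were unequal. Tead1 stood at 218, 223 and 223 CPM in C1, C2 and C3, a mean of 221 ± 2.67 CPM (SD, n = 3). Tead2 stood at 73.9, 71.1 and 69.3 CPM in C1, C2 and C3, a mean of 71.4 ± 2.34 CPM. These CPM values are not comparable between both genes, since the exon union is 13570 bases for Tead1 and 4788 bases for Tead2.

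Per kilobase, Tead1 (16.3 ± 0.197) and Tead2 (14.9 ± 0.490) were close. The ratio of Tead1 to Tead2 was 1.09 (log2 0.13 ± 0.06), above 1 in 3 of 3 libraries, and the 95% counting interval of the ratio in C1 (0.978 to 1.11) included 1, unlike those in C2 (1.07 to 1.14) and C3 (1.09 to 1.18). Without length correction the log2 ratio was 1.63, so the gap was wider in CPM than per kilobase.

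Tead4 and Tead3 were lower. Tead4 stood at 31.5, 28.5 and 34.3 CPM in C1, C2 and C3, with 95% counting intervals of 28.9 to 34.2, 27.2 to 29.8 and 32.7 to 36.0 CPM, and a mean of 31.4 ± 2.92 CPM. Tead3 stood at 12.0, 12.1 and 13.2 CPM in C1, C2 and C3, a mean of 12.4 ± 0.642 CPM, from 212, 809 and 626 counts. C3 was the highest library for both, but Tead3 did not exceed counting noise (adjusted p = 0.317 in the Poisson dispersion test described below).

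Per kilobase, Tead1 was 1.87-fold above Tead4 (log2 0.90 ± 0.14) and 8.81-fold above Tead3 (log2 3.14 ± 0.06), each in 3 of 3 libraries. Of the summed TEAD level per kilobase, Tead1 made up 39.0% ± 0.940, Tead2 35.7% ± 1.37, Tead4 20.9% ± 1.59 and Tead3 4.42% ± 0.185. With the longest transcript as length the order was the same, with Tead1 at 38.9%, Tead2 at 36.9%, Tead4 at 17.9% and Tead3 at 6.32%. Tead3 was thus a minor part of the TEAD RNA under both lengths.

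**Figure D2:**
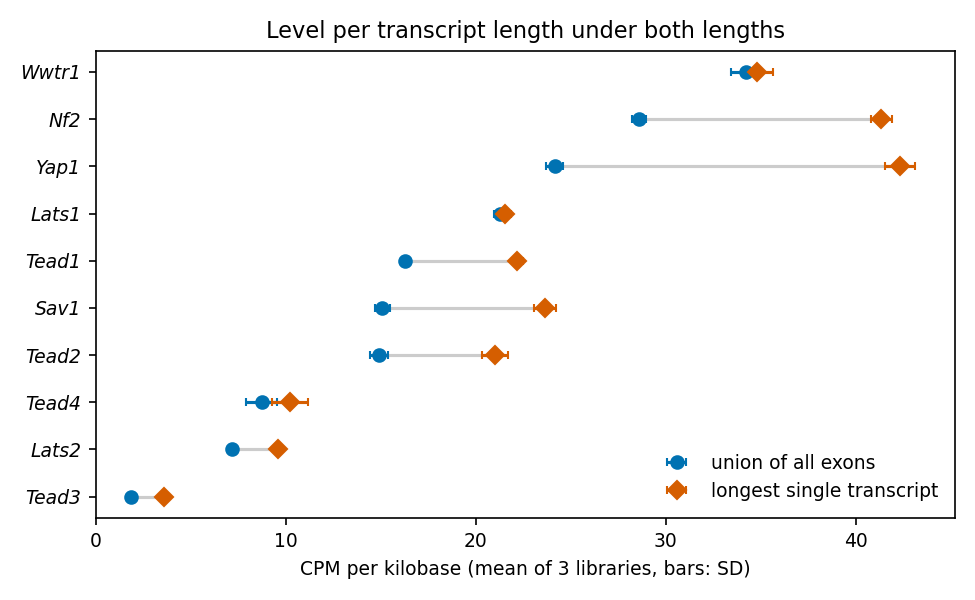
Mean level per kilobase of each core gene over 3 libraries (bars, SD), divided by the union of all exons (circles) or by the longest single transcript (diamonds). Yap1 moves from 24.2 to 42.3 CPM per kilobase between these lengths while Wwtr1 stays near 34, and Tead3 is lowest under both.

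Of the LATS kinases, which phosphorylate YAP and TAZ, Lats1 was the more abundant. Lats1 stood at 153, 158 and 155 CPM in C1, C2 and C3, a mean of 155 ± 2.35 CPM (SD, n = 3). Lats2 stood at 49.4, 50.9 and 49.2 CPM in C1, C2 and C3, a mean of 49.8 ± 0.929 CPM. The ranges of both genes were far apart.

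Per kilobase, Lats1 was 2.98-fold above Lats2 (log2 1.57 ± 0.01), with single-library ratios of 2.96, 2.96 and 3.01. Lats1 made up 74.9% ± 0.180 of the summed LATS level, the most even proportion between libraries among the families described. With the longest transcript the log2 ratio was 1.17, so the direction held and the size shrank. Lats2 shares 42.4% of its exon bases with a same-strand gene model, Gm49361, that has no row in the table, so its annotated length and its assigned reads are less certain than those of Lats1.

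The scaffolds were expressed at 195 ± 2.58 CPM for Nf2 and 79.4 ± 1.97 CPM for Sav1 (SD, n = 3). Nf2, a tumour suppressor that links the cell membrane to the LATS kinases, stood at 192, 197 and 196 CPM in C1, C2 and C3. Sav1, the scaffold of the MST kinases, stood at 77.8, 81.6 and 78.9 CPM in C1, C2 and C3. C1 was the lowest library for both, but by less than its counting standard error. It lay at -1.48% from the mean for Nf2 (error 1.72%) and at -2.05% for Sav1 (error 2.70%).

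Per kilobase, Nf2 was 1.89-fold above Sav1 (log2 0.92 ± 0.02), in 3 of 3 libraries. Exons of Atl1 on the opposite strand cover 25.4% of the exon bases of Sav1. Atl1 itself stood at 2.05 CPM on average; if counting ignored strand, reads of both genes in these bases cannot be told apart. The other exon overlaps, of Yap1 and of Tead2, covered at most 1.25% of exon bases, with genes at 0.0816 CPM or less.

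Ordered by level per kilobase of exon union, the core genes ran Wwtr1, Nf2, Yap1, Lats1, Tead1, Sav1, Tead2, Tead4, Lats2 and Tead3. Only the neighbours Sav1 and Tead2 overlapped in their ranges, and their difference (log2 0.02 ± 0.07) was smaller than its SD. With the longest transcript the order ran Yap1, Nf2, Wwtr1, Sav1, Tead1, Lats1, Tead2, Tead4, Lats2 and Tead3. In that order the ranges overlapped for Yap1 and Nf2, for Lats1 and Tead2 and for Tead4 and Lats2. Tead2, Tead4, Lats2 and Tead3 held the last 4 places under both lengths.

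Summed by role, YAP and TAZ together had 58.4 ± 0.922 CPM per kilobase, the 4 TEAD genes 41.8 ± 0.748, both LATS kinases 28.4 ± 0.441 and Sav1 with Nf2 43.7 ± 0.724. The coactivators exceeded the TEAD sum by 1.40 ± 0.0466-fold, or by 1.35 ± 0.0417-fold with the longest transcript. The LATS sum was 0.487 ± 0.00634 of the coactivator sum, or 0.404 ± 0.00340 with the longest transcript. With 3 libraries, the smallest p that an exact sign-flip test (two-sided) allows is 0.25, and no ratio was given a p.

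The core genes' levels were close between the libraries. Their coefficients of variation ran from 1.21% for Tead1 to 9.29% for Tead4, with a median of 2.14%. The median was 4.35% over the 7954 genes whose mean CPM lay within the range of the core genes, but the core genes had a median of 117 CPM, against 47.7 CPM for those genes, so the sets differ in depth and the difference was not tested. All 10 core genes passed the filter on low counts. In a Poisson dispersion test with Benjamini-Hochberg adjustment over all 13026 genes at 0.05, 1 of 10 core genes exceeded counting noise, Tead4. The same test, which has more power at higher counts, called 39.3% of all genes and 46.8% of those within the core genes' range of mean CPM.

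**Figure D3:**
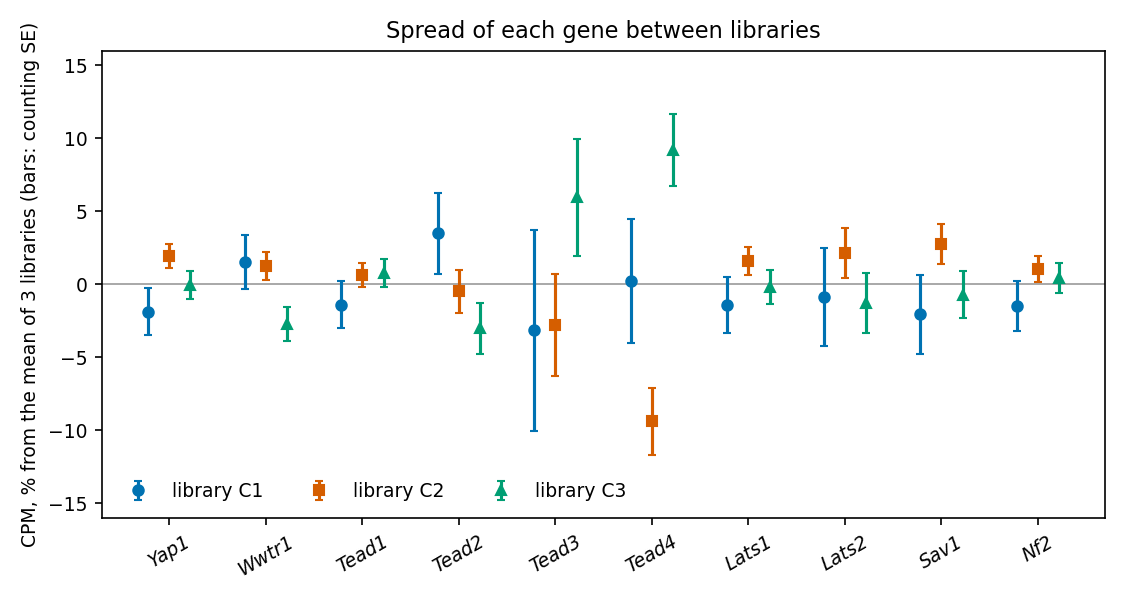
CPM of the libraries C1, C2 and C3 as a percent deviation from the mean of each core gene, with bars of 1 counting standard error. Tead4 lies at -9.39% in C2 and at 9.19% in C3, and no other gene is further than 5.96% from its mean.

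Tead4 deviated from its mean by 9.19% in C3 and by -9.39% in C2, and C1 lay between them. Its adjusted p in the Poisson test was 9.42e-07, with a range over the alternatives of 1.75e-07 to 0.243. In the same test the call held without C1 (adjusted p = 1.75e-07) and was lost without C2 (0.243) or without C3 (0.162). Over all genes the calls fell from 5118 to 4908 without C1, 1761 without C2 and 1667 without C3. C2 and C3 are the deeper libraries, so the loss of the call may also reflect fewer counts. Wwtr1, with an adjusted p of 0.0815, passed the threshold when libraries were scaled by their totals alone (0.0458) and when C1 was left out (0.0398). The direction was a lower level in C3 than in C1 and C2.

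Spread was also set against that of genes of similar level. In the edgeR quasi-likelihood F test with Benjamini-Hochberg adjustment over all 13026 genes, 0 of 10 core genes were called and 0 had an unadjusted p under 0.05. Over all genes 0.0691% were called and 5.15% had an unadjusted p under 0.05. The smallest unadjusted p among them was that of Tead4 (0.0915; adjusted p = 0.995). The robust edgeR fit called 0 of all 13026 genes, so its 0 of 10 core genes adds nothing about them.

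Most of the other pathway genes checked were expressed along with the core. Outside the core genes, 6 lists of pathway genes held 73 genes, of which 63 reached 1 CPM in every library, with a median of 96.9 CPM not corrected for length. The uncorrected median over the 18797 symbols with any count, of which 11700 reached 1 CPM, was 9.19 CPM.

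**Figure D4:**
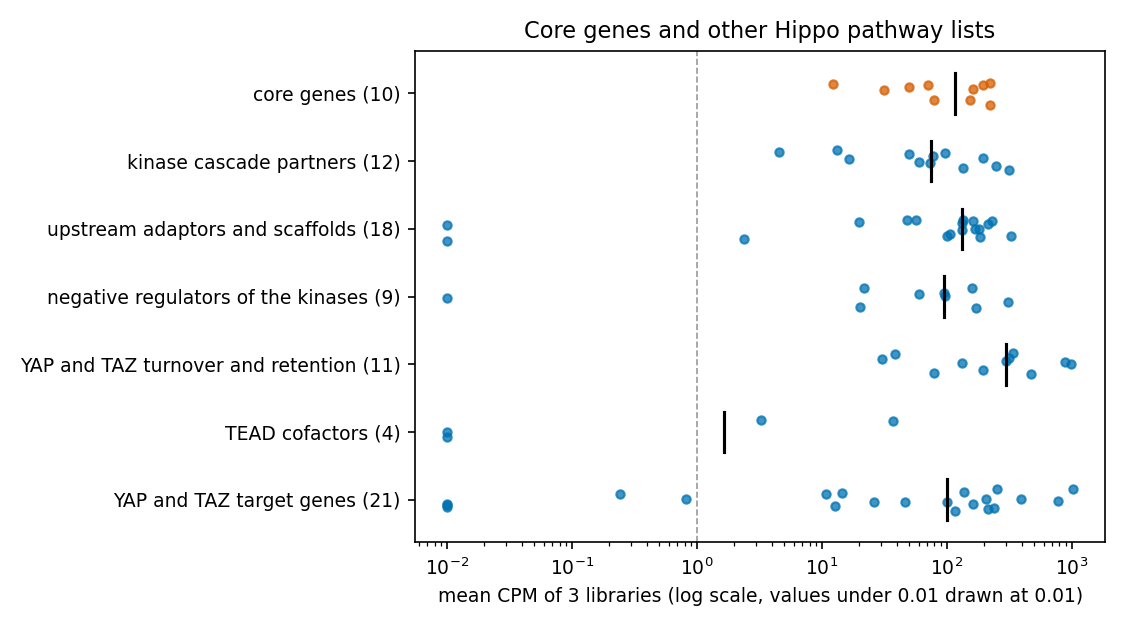
Mean CPM over 3 libraries (log axis) of the core genes and of 6 lists of other pathway genes, with Lats2 left out of the target list; black ticks are medians, the dashed line is 1 CPM, and numbers in parentheses count genes. The core genes have a median of 117 CPM, and the list of TEAD cofactors has the lowest, 1.65 CPM.

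All 12 partners of the kinase cascade reached 1 CPM. The most abundant in CPM were Map4k4, a kinase that acts on LATS beside the MST kinases, at 313 ± 10.5 CPM (SD, n = 3), the LATS coactivators Mob1a (249.5 ± 1.68 CPM) and Mob1b (134 ± 3.94 CPM), and the MST-activating kinase Taok1 (194 ± 3.87 CPM). The MST kinases themselves, named outside the rule because they are central to the pathway, stood at 77.5 ± 4.59 CPM (Stk3) and 96.9 ± 3.14 CPM (Stk4). Per kilobase of exon union Lats1 had 21.3 and Lats2 7.15 CPM, against 12.7 for Stk3 and 16.5 for Stk4. The Poisson test called 5 of these 12 genes, compared with 39.3% of all genes tested, and the F test called 0.

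Of 18 upstream adaptors and scaffolds 16 reached 1 CPM. Amotl1, a binding partner of YAP, had 326 ± 30.5 CPM, the junction protein Tjp1 had 233 ± 15.1 CPM, and Kirrel, a cell adhesion protein, had 186 ± 5.11 CPM. The giant cadherins on the list, Dchs1 and Fat4, were hardly detected at this depth. Dchs1 had 0 counts, which allows a level of up to 0.170, 0.0448 and 0.0631 CPM in C1, C2 and C3. Fat4 had 1 count in all. The Poisson test, which has more power at higher counts, called 12 of the 16 genes tested, compared with 39.3% of all genes. The F test called 0. Amotl1 was highest in C3, at 359 CPM, compared with 299 CPM in C1 and 319 CPM in C2.

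Of 9 genes that restrain the kinases 8 reached 1 CPM. Ppp2r1a, the scaffold subunit of protein phosphatase PP2A, stood at 310 ± 4.67 CPM, Jub, the LATS-binding LIM protein now called Ajuba, at 173 ± 3.68 CPM, the PP2A-associated striatin Strn3 at 161 ± 4.12 CPM and the LIM protein Limd1 at 96.8 ± 1.65 CPM. Wtip, the other LIM protein of this family, had 1 count in all. All 11 genes for retention and turnover of YAP and TAZ were present, led in CPM by the 14-3-3 genes Ywhae (986 ± 38.3 CPM), Ywhaz (887 ± 13.4 CPM), Ywhag (473 ± 13.9 CPM) and Ywhab (340 ± 2.48 CPM), whose proteins hold phosphorylated YAP in the cytoplasm. The F test called none of either list. The Poisson test called 5 of 8 and 6 of 11, compared with 39.3% of all genes tested.

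The Vestigial-like cofactors, which compete with YAP and TAZ for TEAD, were few. Vgll4, a repressor of TEAD output, stood at 37.4 ± 1.04 CPM (SD, n = 3) and Vgll3 at 3.30 ± 0.951 CPM. Vgll1 had 1 count in all and Vgll2 had 0. Per kilobase of exon union Yap1 had 24.2 and Wwtr1 34.2 CPM, against 6.93 CPM for Vgll4.

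Most of the known target genes of YAP and TAZ on the list were expressed. Of 22 targets, Lats2 included as a feedback target, 17 reached 1 CPM in every library, compared with 33.8% of all symbols in the table. The receptor kinase Axl stood at 1035 ± 23.2 CPM, the membrane repair protein Myof at 773 ± 28.0 CPM, the Arf GTPase-activating protein Asap1 at 395 ± 20.4 CPM and the matricellular gene Cyr61 at 252 ± 48.7 CPM. Igfbp3 and Rbms3 had 0 counts. The median coefficient of variation was 2.14% for the core genes and 5.66% for the 16 targets at 1 CPM other than Lats2, a difference that was not tested. The Poisson test called 14 of the 18 targets tested, Lats2 not among them, compared with 39.3% of all genes tested. That test has more power at higher counts, and the difference between these shares was not tested. The F test called 0 of 18.

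Of these 16 targets 9 were highest in C3, 5 in C2 and 2 in C1; of all 11700 genes at 1 CPM 3978 were highest in C3, 4177 in C2 and 3545 in C1. Cyr61 stood at 246, 207 and 304 CPM in C1, C2 and C3. Ctgf, its relative and named outside the rule, stood at 191, 188 and 240 CPM in C1, C2 and C3. Cyr61 and Ctgf were each highest in C3. Cyr61 was lowest in C2, while Ctgf was close in C1 and C2. Other targets differed, as Axl was highest in C1, and Myof and Gadd45a, the latter also named outside the rule, were highest in C2. With 3 libraries, no correlation between targets and core genes was computed.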

How the data were processed

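The deposited table gives a whole-number count per gene symbol and library, not normalized, per the file headers and values. The submitters' processing notes name CASAVA 1.7, BWA, STAR and HTSeq and build mm9, with no role or order; no source used here gives the annotation, the strand setting or the handling of multi-gene reads, and the kit preserved strand, per the labels. Columns match no sample title and were assigned to the group as a whole. CPM used column totals; all rows name a gene. Lengths came from GENCODE M21 (GRCm38), which gave one to 31440 symbols (90.9%) and all core genes. It also served for the exon overlaps and to check the promoter windows, which are RefSeq's. Ratios had 0.5 counts added. Intervals are exact 95% Clopper-Pearson intervals and limits at 0 are 3 counts; both cover counting error only. Spread tests used edgeR 4.0.16 in R 4.3.3 (TMM, filterByExpr, intercept only) and were tested on simulated data. Of other lists, the 4 highest genes by mean CPM, genes at 0 counts (up to 3) and any gene the F test called were to be named; 1 of these is not reported here. The members and lists were chosen with earlier results of these data known. Planned protein comparisons were not made.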

Additional observations from a re-analysis of the deposited data

How the results depend on the processing

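No paired analysis was possible because the libraries form 1 group. Scaling by TMM or DESeq2 size factors moved none of the 10 mean CPM levels by more than its SD. Both were set to keep the average library size, so they could hardly move a mean over the same libraries. This setting therefore could not decide whether the levels were stable. The TMM factors were close to 1, from 0.998 in C3 to 1.001 in C2. Leaving out 1 of 3 libraries can never move a mean by more than its SD, so that setting could not decide whether the levels were stable. The count of core genes was 10 with TMM and with a threshold of 10 CPM, and that of other pathway genes was 59 with that threshold. With each library left out the counts were 10 and 63. Such counts cannot fall when a library is left out, so this setting could not test them. The ratios between genes depended on the length used. The log2 ratio of Yap1 to Wwtr1 was -0.50 with the exon union, but 0.28 with the longest transcript and 0.45 without length correction. With the longest transcript the log2 ratio was 2.62 for Tead1 over Tead3, 1.12 for Tead1 over Tead4, 1.17 for Lats1 over Lats2 and 0.81 for Nf2 over Sav1; without length correction it was 1.63 for Tead1 over Tead2, 4.15 for Tead1 over Tead3, 2.82 for Tead1 over Tead4, 1.64 for Lats1 over Lats2 and 1.30 for Nf2 over Sav1. The Poisson test called 1 core gene, 2 when libraries were scaled by totals alone, and 0 to 2 with 1 library left out; over all genes it called 5118, and 1667 to 4908 with 1 library left out, settings with fewer counts. The F test called 0 core genes under every alternative run; over all genes it called 9, 14 with scaling by totals alone, 171 without the filter, 0 in the robust fit (588 at an unadjusted p under 0.05), and 3 to 52 with 1 library left out. The cause of these differences was not tested. Depth limits Tead3 most, at 212 counts in C1.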
